A study of Mus musculus with 4 samples.

Results

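The genes described here encode the subunits of the nuclear pore and the factors that carry cargo through it. They were chosen by name: 35 genes of the mouse annotation, 28 nucleoporins and 7 transport receptors or parts of the Ran system, grouped by subcomplex, with Nup98 itself left out because its sequence is part of the fusion under study. All 35 were found among the 55401 gene identifiers measured, and all 35 were among the 16511 genes that passed the filter on low counts and entered the test.

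Messenger RNA was measured in EB3, a line of mouse embryonic stem cells kept undifferentiated on gelatin with the cytokine LIF. The study set wild-type cells against cells that express NUP98-HOXA9, a leukaemia-associated fusion of a nucleoporin and a homeodomain transcription factor. There were 4 libraries. The wild-type group held 1 library of parental EB3 cells (genotype WT) and 1 library of EB3-derived cells that carry an empty vector (genotype WT with empty vector). The fusion group held 2 libraries of EB3-derived cells of genotype NUP98-HOXA9, numbered 1 and 2. No other allele or agent is named, all 4 libraries share the same line and medium, and no source used here gives the promoter of the vector. Nothing in the labels tells if fusion libraries 1 and 2 came from different clones or cultures, so a p-value reflects the spread among these 4 samples and that spread may be technical. Within the wild-type group that spread lies between 2 kinds of control.

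The nuclear pore complex is the channel through which proteins and RNA pass between nucleus and cytoplasm. Stacked rings built from the Y complex and the inner ring are held in the nuclear envelope by membrane nucleoporins, and they anchor a central channel lined with phenylalanine-glycine repeats, filaments on the cytoplasmic side and a basket on the nuclear side. Importins and exportins carry cargo through the repeats, and the small GTPase Ran, loaded with GTP in the nucleus and made to hydrolyse it in the cytoplasm, sets the direction.

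Libraries held 19021386 to 21151729 expected counts, and a single member had between 635 and 21572 counts in a library. Embryonic stem cell markers were present in every library, with summed levels of 5100 CPM (counts scaled to library size) in parental cells, 5894 with empty vector, and 5975 and 6016 in fusion replicates 1 and 2. Of these 10 markers 0 passed the threshold, but the sum covers differences in both directions. Without overlap, 2 were higher with the fusion (Nanog, log2 fold change 1.11, edgeR adjusted p = 0.0867, and Klf4, 1.4, edgeR adjusted p = 0.0651) and 3 were lower (Sox2, -0.34, Zfp42, -0.26, and Utf1, -0.46). These shares of 20% and 30% were near those of all genes tested, 27.1% higher and 24.2% lower without overlap. Among genes at 43.7 CPM or more, the mean of the lowest pore or transport member, the shares were 17.1% and 33.5%. Endoderm markers moved with the fusion. All 14 tested were higher without overlap, and 12 of them were called higher, where 2.83% of all genes were. The list summed to 266 and 242 CPM in wild type against 1259 and 1192 CPM with the fusion, while Afp and Ttr stayed near 0. The near-equal fusion sums cover single markers that differed between fusion replicates 1 and 2. Hnf4a stood at 58.7 and 8.98 CPM and Cubn at 7.27 and 82.2 CPM, while others were close, such as Gata4 at 27.4 and 25.9 CPM. The fibroblast list summed to 41.1 and 27.4 CPM in wild type and 47.5 and 55.9 CPM with the fusion. Of its 6 tested members 0 passed the threshold. Without overlap 4 were higher, a class that held 27.1% of all genes tested. These were Col1a1 (0.9), Col1a2 (0.96), Col3a1 (1.31) and Dcn (0.07 on the log2 scale, at 0.677 to 0.73 CPM). Postn (-0.28) was lower without overlap, and Thy1 (-0.12) overlapped. Twist2 and Lum did not pass the filter on low counts. The proliferation list summed to 4172 and 4347 CPM in wild type and 4449 and 3914 CPM with the fusion, and 0 of 12 passed. The part of these marker lists in the values below was not tested, and in bulk RNA fewer cells of a type and less RNA per cell cannot be told apart. Parental cells stood apart on chromosome 8, where the median gene lay 0.35 log2 units above the mean of the other libraries. Fusion replicate 1 stood apart on chromosome 15 beyond 50 Mb, with a median of 0.45. In the other 18 chromosomes the medians lay between -0.13 and 0.09 in every library. Nup93 and Nup133 lie on chromosome 8, and Nup50, Rangap1 and Aaas on distal chromosome 15.

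The comparison of fusion with wild-type cells asked which members differ in transcript level. Most pore and transport genes were slightly lower with the fusion, by less than the test could call. Across the 35 members the log2 fold change (fusion over wild type) ran from -0.93 for the membrane nucleoporin Nup210 to 0.34 for the basket protein Nup50. The median was -0.22, or 85.9% of the wild-type level, with quartiles of -0.36 and -0.12. The median of all genes tested was 99.8% of wild type, and that of the 4842 genes at 43.7 CPM or more, the mean CPM of the lowest member, was 93.8% (log2 fold change -0.09).

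None of the members passed the threshold. The count was 0 called lower, where 0.581% of all genes were called lower, and 0 called higher, where 2.83% of all genes were called higher (edgeR's quasi-likelihood test, Benjamini-Hochberg adjusted p of 0.05 over all genes tested). The lowest adjusted p among the members was 0.159, for Nup210. At an unadjusted p under 0.05 there were 4 lower members, Nup210, Nup88, Nup54 and Nup155, or 11.4% of the members. Of all genes 7.41% met that rule, and of genes at 43.7 CPM or more 10.6%, close to the members' share. In the higher direction there were 0 members, with 12.7% of all genes and 7.54% of genes at 43.7 CPM or more. A DESeq2 Wald test also called 0 members and gave 4 at an unadjusted p under 0.05, with a lowest adjusted p of 0.0605. Limma on the deposited TPM (a transcript level scaled by length and depth) called 0 and gave 0 at that unadjusted p. The standard errors (SE) of the members' log2 fold changes were 0.16 to 0.31, so single differences of the median size were not detectable with these 4 libraries.

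The direction was lopsided. A log2 fold change below 0 was found for 32 of 35 members (91.4%), where 50.3% of all genes tested and 62.6% of genes at 43.7 CPM or more lay below 0. Both fusion libraries lay below both wild-type libraries for 25 members, or 71.4%, a class that held 24.2% of all genes tested and 33.5% of genes at 43.7 CPM or more. Both lay above for 0 members, a class that held 27.1% of all genes and 17.1% of genes at 43.7 CPM or more. The libraries overlapped for the other 10 members. These classes were formed on CPM, and their shares in TPM were not counted. In TPM several of the 25 overlapped, among them Nup107, Seh1l and Xpo1, while others, such as Nup85 and Nup88, did not. Among the 30 members that lie off chromosome 8 and distal chromosome 15, 29 had a log2 fold change below 0, 23 did not overlap, and the median was -0.24. Summed over all 35 members, the level was 8594 CPM in parental cells, 8395 with empty vector, 7635 in fusion replicate 1 and 7036 in fusion replicate 2. On the deposited TPM scale the sums were 4252, 4469.7, 4172 and 3925 in the same order, so both scales put both fusion libraries below both controls, with a smaller gap in TPM. Members share these libraries and are not independent replicates of the comparison.

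**Figure D1:**
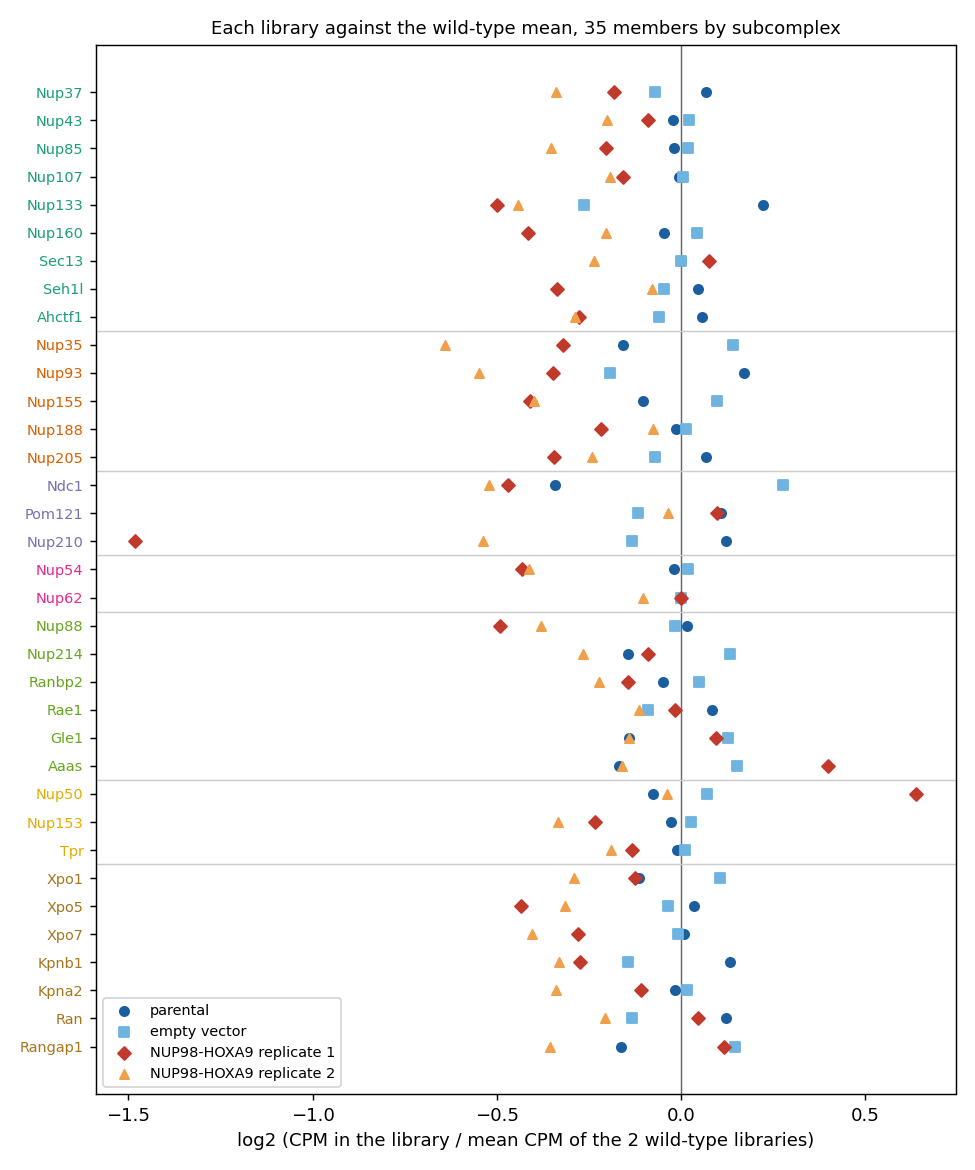
Log2 ratio of each library's CPM to the mean of the wild-type libraries (horizontal axis), for the 35 members (vertical axis, coloured by subcomplex). Points are single libraries. Most fusion points lie left of the wild-type points, Nup210 of replicate 1 lies farthest left, and Nup50 of replicate 1 farthest right.

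The per-library plot shows each member against its own wild-type mean, and the fold-change plot shows the fitted values with their errors. Every subcomplex had a median below 0, and Pom121, Aaas and Nup50 are the 3 members above 0.

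**Figure D2:**
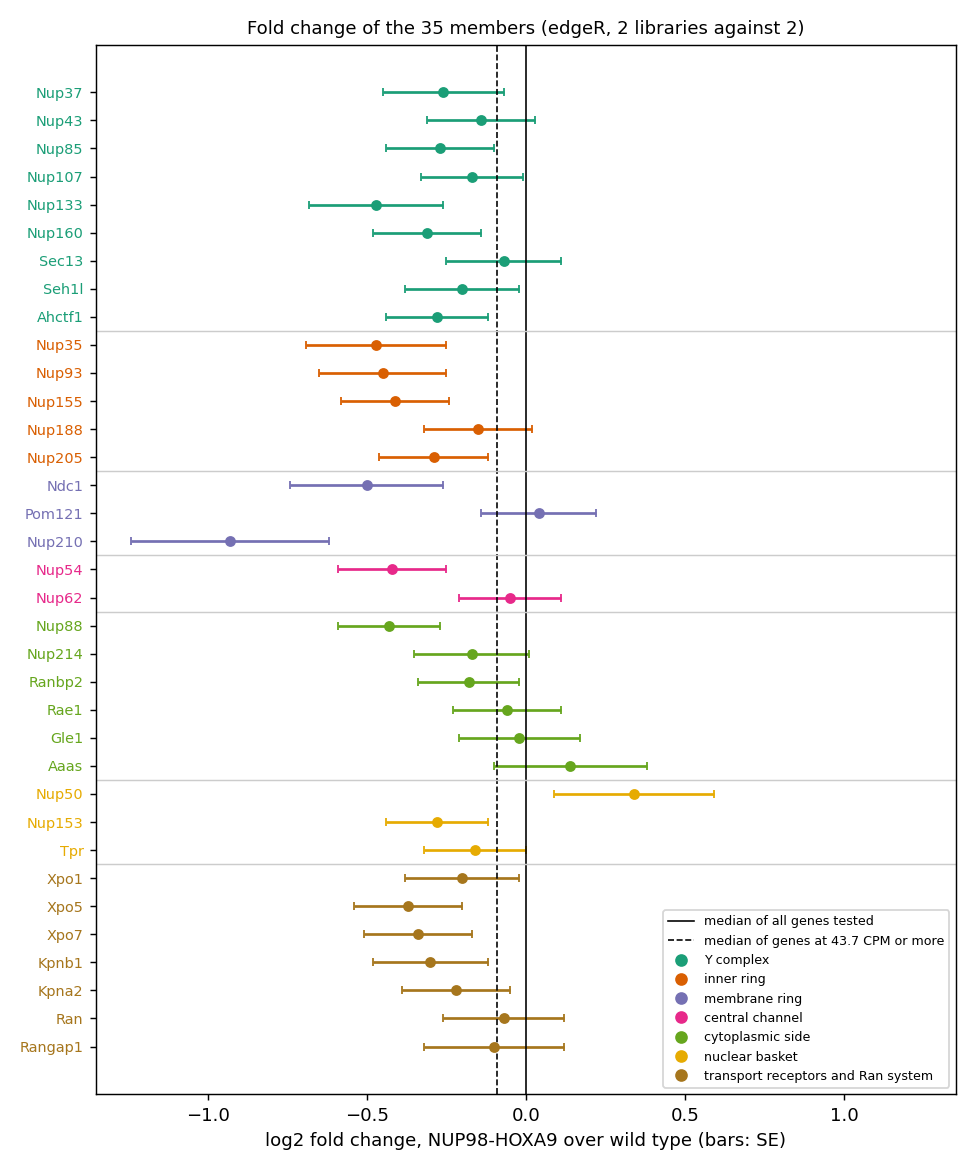
Log2 fold change of the 35 members, NUP98-HOXA9 over wild type, from edgeR with 2 libraries against 2 (points, with SE as bars), grouped and coloured by subcomplex. The solid line marks the median of all genes tested and the dashed line the median of genes at 43.7 CPM or more, and 32 of 35 points lie below 0.

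The Y complex forms the outer rings of the pore scaffold. Its 9 members all had a log2 fold change below 0, with a median of -0.26 (-0.1 with limma on TPM). For 8 of them (88.9%) both fusion libraries lay below both controls in CPM, beside 24.2% of all genes tested and 33.5% of genes at 43.7 CPM or more. Of these 8, Nup43, Nup107, Nup160 and Seh1l overlapped in TPM, while Nup37, Nup85, Nup133 and Ahctf1 did not. The summed level was 1489 CPM in parental cells, 1399.6 with empty vector, and 1207 and 1206 in fusion replicates 1 and 2. The largest difference was that of Nup133, at the tip of the Y stem (chromosome 8, 123897123 to 123949265, minus strand). It stood at 241 CPM in parental cells, 172 with empty vector, 146 in fusion replicate 1 and 152 in replicate 2. The parental library was the high one, on the chromosome where that library stands apart, and the empty vector lay nearer to the fusion libraries. Its log2 fold change was -0.47 (SE 0.21, adjusted p = 0.268), -0.22 without the parental library and -0.72 without the empty-vector library, and the part of the chromosome in it was not tested. Sec13, which also coats vesicles leaving the endoplasmic reticulum, had the smallest difference of the complex. It stood at 113 CPM in both controls, 119 in fusion replicate 1 and 95.9 in replicate 2, so the groups overlapped (log2 fold change -0.07, SE 0.18). The other scaffold members lay between these: Nup160 at -0.31, Ahctf1 (ELYS, which brings the complex to chromatin after mitosis) at -0.28, Nup85 at -0.27, Nup37 at -0.26, Seh1l at -0.2, Nup107 at -0.17 and Nup43 at -0.14 on the log2 scale.

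The inner ring links the membrane to the central channel. All 5 of its members had both fusion libraries below both controls in CPM, beside 24.2% of all genes tested and 33.5% of genes at 43.7 CPM or more. In TPM the groups overlapped for Nup35 and Nup188, and not for Nup93, Nup155 and Nup205. The median log2 fold change of the 5 members was -0.41. The median was -0.27 without the parental library, -0.26 against empty vector alone and -0.24 with limma on TPM. Nup155, a scaffold protein that binds the membrane (chromosome 15, 8109273 to 8161247, plus strand), stood at 173 CPM in parental cells, 199 with empty vector, 140.1 in fusion replicate 1 and 141 in replicate 2. The fusion replicates were close to each other, and the gap to the controls was wider than the gap between the controls. Its log2 fold change was -0.41 (SE 0.17, unadjusted p = 0.0487, edgeR adjusted p = 0.245). Nup155 lies on the proximal part of chromosome 15 and is counted among the members off chromosome 8 and distal chromosome 15. In that proximal part the median gene, against the mean of the other libraries, stood at 0.17 in parental cells and 0.06 with empty vector. It stood at -0.24 in fusion replicate 1 and -0.11 in replicate 2. The part of the region in the value of Nup155 was not tested.

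Nup93, which holds the inner ring together (chromosome 8, 94214564 to 94317227, plus strand), stood at 265 CPM in parental cells, 206 with empty vector, and 185 and 161 in the fusion replicates. As with Nup133, the parental library stood apart from the other 3. The log2 fold change was -0.45 (SE 0.2, adjusted p = 0.262), and -0.27 without the parental library. Nup35, another membrane-binding subunit and the least abundant member by CPM, stood at 45.6 and 56.1 CPM in parental and empty-vector cells and at 40.7 and 32.6 in the fusion replicates. The groups did not overlap, and the log2 fold change was -0.47 (SE 0.22, adjusted p = 0.299). Nup188, a large scaffold subunit, had the smallest difference of the ring, at 332 and 338 CPM in the controls and 288 and 318 with the fusion (log2 fold change -0.15, SE 0.17). Nup205, its relative in the same position of the ring, had a log2 fold change of -0.29 (SE 0.17).

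The membrane ring holds the pore in the nuclear envelope, and it has 3 members here. Nup210, a glycoprotein that spans the membrane (chromosome 6, 91013068 to 91116829, minus strand), stood at 96.7 CPM in parental cells, 80.9 with empty vector, 31.8 in fusion replicate 1 and 61.2 in replicate 2. Both fusion libraries were below both controls, and they differed from each other 1.92-fold, more than the controls did (1.19-fold). The log2 fold change was -0.93 (SE 0.31, unadjusted p = 0.0204, edgeR adjusted p = 0.159), or 52.4% of the wild-type level. Nup210 was called lower when no filter on low counts was used (log2 fold change -0.97, adjusted p = 0.00672) and when fusion replicate 2 was left out (-1.48, adjusted p = 0.0434), while without fusion replicate 1 it was at -0.54 (adjusted p = 0.414). Over all alternatives its adjusted p ran from 0.00672 to 0.442.

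Ndc1, the membrane protein that anchors inner-ring subunits, stood at 79.4 CPM in parental cells, 122 with empty vector, 72.7 in fusion replicate 1 and 70.2 in replicate 2. Here the empty-vector library was the high one, 1.54-fold above parental cells, and the parental library lay close to the fusion libraries. The log2 fold change was -0.5 (SE 0.24, adjusted p = 0.306), and it was -0.18 without the empty-vector library and -0.79 without the parental library. Ndc1 is also the middle member of the ring, so the ring's median of -0.5 took the same values. Pom121, a membrane nucleoporin that helps insert new pores, overlapped between the groups, with 138 and 118 CPM in the controls and 137 and 125 with the fusion (log2 fold change 0.04, SE 0.18).

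The central channel was represented by Nup54 and Nup62, subunits of the repeat-bearing complex through which cargo passes. Nup54 (chromosome 5, 92415540 to 92435219, minus strand) stood at 93.3 CPM in parental cells, 95.8 with empty vector, 70.1 in fusion replicate 1 and 71 in replicate 2. The libraries of each group agreed closely and the groups were apart. The log2 fold change was -0.42 (SE 0.17, unadjusted p = 0.0412, edgeR adjusted p = 0.227). On the TPM scale the picture differed, with 57.5 in parental cells, 82.6 with empty vector, 56.9 in fusion replicate 1 and 56 in replicate 2, so that parental cells lay beside the fusion libraries. The length that the authors' software assigned to Nup54, an average over its transcript forms, was 2249 bases in parental cells and 1750, 1891 and 2006 bases in the other libraries. Across members the longest and shortest such length differed by more than 1.1 times for 9 genes, with a median ratio of 1.06. Nup62 stood at 199.8 CPM in parental cells, 199.7 with empty vector, 199.8 in fusion replicate 1 and 186 in replicate 2, so its groups overlapped (log2 fold change -0.05, SE 0.16), and the difference between Nup54 and Nup62 was not tested.

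The cytoplasmic side holds the filaments at which exported RNA is released. Of its 6 members, 5 had a log2 fold change below 0, but only for Nup88 and Ranbp2 did the groups not overlap. That share, 33.3%, was near the 33.5% of genes at 43.7 CPM or more, and 24.2% of all genes were in that class. It was read on CPM, and in TPM the groups of Ranbp2 overlapped. The median was -0.12, with -0.05 to -0.2 when a library was left out and -0.01 with limma. Nup88, which anchors Nup214 on the outer face (chromosome 11, 70943058 to 70969973, minus strand), stood at 216 CPM in parental cells, 211 with empty vector, 152 in fusion replicate 1 and 164 in replicate 2. The controls were nearly equal and both fusion libraries were lower. The log2 fold change was -0.43 (SE 0.16, unadjusted p = 0.0346, edgeR adjusted p = 0.209), the smallest adjusted p after that of Nup210. Nup214 itself, the docking site for exportin 1, had a log2 fold change of -0.17 (SE 0.18), and Ranbp2, the large filament protein that binds Ran and adds SUMO, -0.18 (SE 0.16). Rae1, an mRNA export factor that binds Nup98, and Gle1, which activates an RNA helicase in the last step of mRNA export, were at -0.06 and -0.02. Aaas (aladin), on distal chromosome 15, stood at 129 CPM in parental cells, 161 with empty vector, 191 in fusion replicate 1 and 129.7 in replicate 2. Fusion replicate 1 was the high library and replicate 2 was beside the parental value (log2 fold change 0.14, SE 0.24, adjusted p = 0.801).

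The nuclear basket reaches into the nucleoplasm. Nup50, a mobile cofactor of import (chromosome 15, 84923411 to 84942963, plus strand), stood at 150 CPM in parental cells, 166 with empty vector, 246 in fusion replicate 1 and 154 in replicate 2. A single library, fusion replicate 1, was high, 1.6-fold above replicate 2, and replicate 2 lay between the controls. The log2 fold change was 0.34 (SE 0.25, adjusted p = 0.519), and it was -0.05 without fusion replicate 1 and 0.64 without replicate 2. All 3 members on distal chromosome 15 were higher in fusion replicate 1 than in replicate 2, by 0.68 log2 units for Nup50, 0.56 for Aaas and 0.47 for Rangap1. The part of the chromosome in these values was not tested. Nup153, which tethers the basket, stood at 262 and 272 CPM in the controls and 227 and 212 with the fusion, without overlap (log2 fold change -0.28, SE 0.16, adjusted p = 0.41). Tpr, the coiled-coil protein that builds the basket's filaments, had a log2 fold change of -0.16 (SE 0.16), also without overlap.

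Transport receptors and the Ran system gave 7 of 7 log2 fold changes below 0, with a median of -0.22, which was -0.34 without fusion replicate 1, -0.12 without replicate 2 and -0.12 with limma. Kpnb1 (importin beta 1), which carries most imported cargo through the channel, stood at 1124 CPM in parental cells, 928 with empty vector, and 849 and 815 with the fusion. The groups did not overlap, but the controls differed more from each other than the lower control did from the fusion libraries (log2 fold change -0.3, SE 0.18, adjusted p = 0.41). Without the parental library its value was -0.17, and without the empty-vector library -0.46. Kpna2, an adaptor that reads nuclear localisation signals and is abundant in embryonic stem cells, stood at 434 and 444 CPM in the controls and 407 and 347 with the fusion (log2 fold change -0.22, SE 0.17, adjusted p = 0.557; -0.35 without fusion replicate 1 and -0.11 without replicate 2). Xpo1 (exportin 1), the main export receptor for proteins, stood at 464 CPM in parental cells, 541 with empty vector, 461 in fusion replicate 1 and 411 in replicate 2, so parental cells and fusion replicate 1 were nearly equal (log2 fold change -0.2, SE 0.18). Leaving out 1 library at a time moved it from -0.32 (no parental) to -0.11 (no empty vector).

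Xpo5, the exporter of microRNA precursors, had the largest difference among the receptors. It stood at 195 and 186 CPM in the controls and 141 and 153 with the fusion (log2 fold change -0.37, SE 0.17, unadjusted p = 0.0585, edgeR adjusted p = 0.271). Xpo7, a broad exporter, stood at 189 and 187 CPM in the controls and 155 and 142 with the fusion (log2 fold change -0.34, SE 0.17). Ran stood at 883 CPM in parental cells, 741 with empty vector, 838 in fusion replicate 1 and 704 in replicate 2, so the groups overlapped (log2 fold change -0.07, SE 0.19, adjusted p = 0.883). Rangap1, which makes Ran hydrolyse GTP at the cytoplasmic face, also overlapped, at 322 and 399.7 CPM in the controls and 391 and 282 with the fusion (log2 fold change -0.1, SE 0.22).

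Libraries of the same group also differed. For 16 of 35 members the larger within-group difference exceeded the absolute log2 fold change. Empty-vector and parental cells were at least 1.5-fold apart for 1 member, Ndc1, a difference that 24.5% of all genes tested reached. Fusion replicates were at least 1.5-fold apart for 2 members, Nup210 and Nup50, a difference that 24.9% of all genes reached. Among genes at 43.7 CPM or more the shares were 9.03% and 9.31%. The median fold between libraries of a group was 1.1 for the members in both groups, 1.15 for genes at 43.7 CPM or more, and 1.23 for all genes tested. Empty vector was above parental for 19 members. Fusion replicate 2 was below replicate 1 for 25 members and above it for 10.

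**Figure D3:**
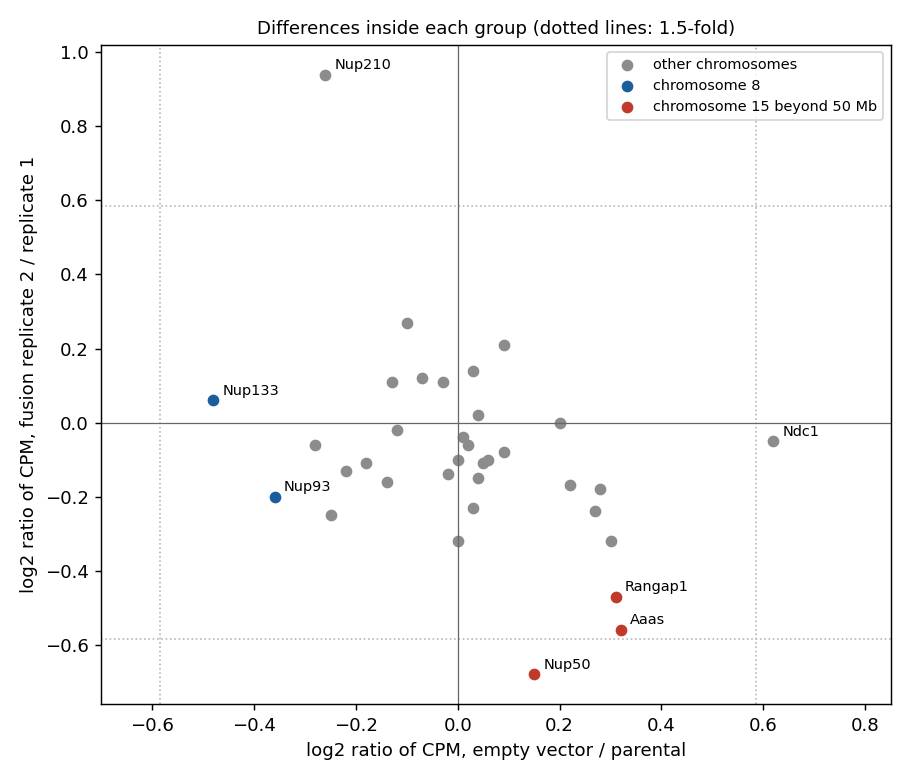
Log2 ratio of empty vector to parental cells (horizontal axis) against log2 ratio of fusion replicate 2 to replicate 1 (vertical axis), 1 point per member. Colours mark members on chromosome 8, on chromosome 15 beyond 50 Mb and on other chromosomes. Dotted lines mark 1.5-fold, which Ndc1 passes on the horizontal axis and Nup210 and Nup50 on the vertical axis.

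Levels can be compared between genes on the TPM scale only, since it accounts for transcript length. Ran led, with a mean of 687 TPM (SD 55.5, n = 4 libraries), then Kpna2 with 305 (SD 24.1), Kpnb1 with 297 (SD 29.4) and Tpr with 214 (SD 14.2). The lowest were Ranbp2 with 35.4 (SD 2.3), Pom121 with 33.9 (SD 2.4), Ndc1 with 31.6 (SD 8.32) and Nup210 with 20.1 (SD 7.55). Most neighbours in the order could not be separated: of 34 neighbouring pairs, the ranges over the 4 libraries were apart for 4, namely Ran and Kpna2, Kpnb1 and Tpr, Xpo1 and Nup88, and Nup155 and Ranbp2. By mean TPM the 3 membrane nucleoporins stood last in the order, and 3 soluble transport factors stood at its head. The ranges of Pom121 and Ndc1 overlapped that of Ranbp2, so the last places were not fully separated.

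**Figure D4:**
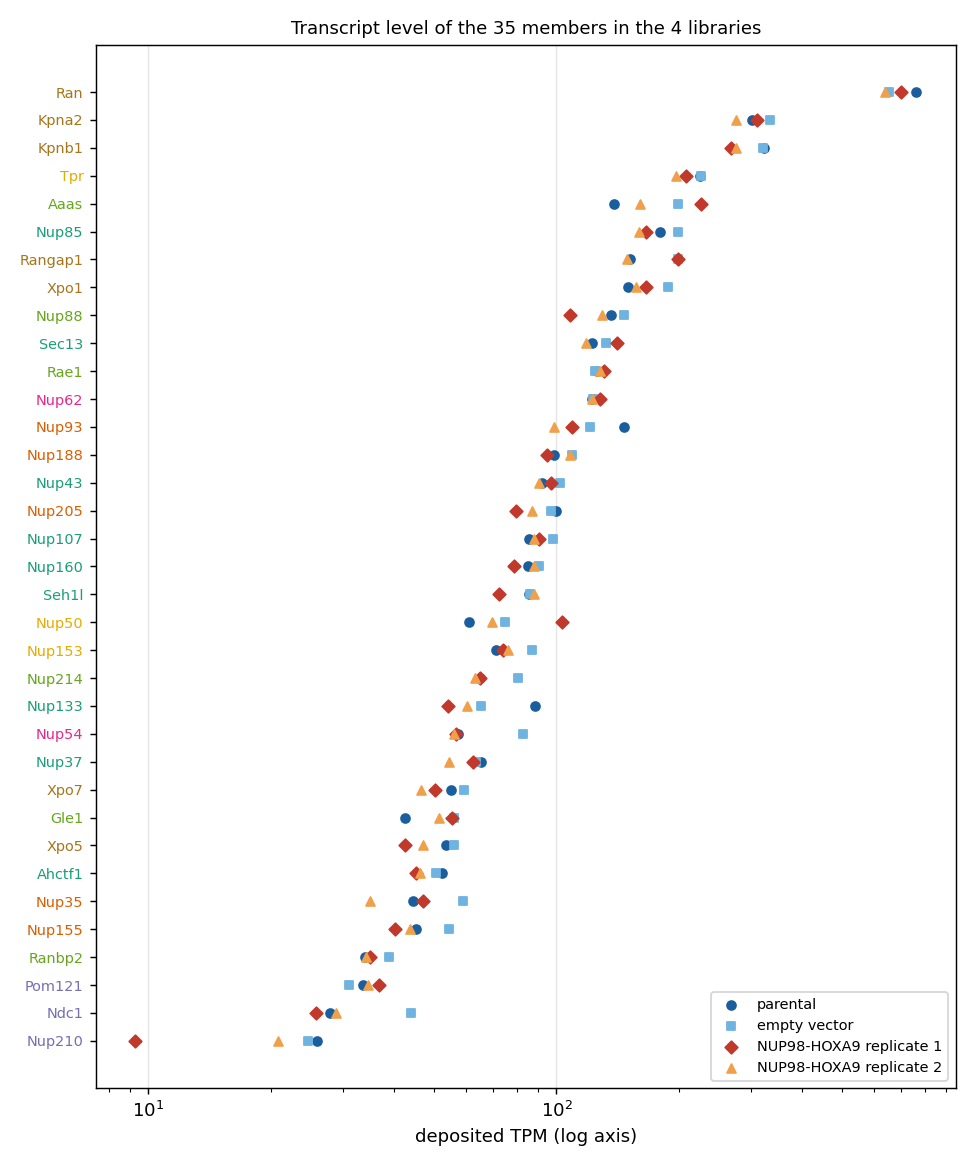
Deposited TPM of the 35 members (horizontal log axis) in the 4 libraries (point shapes), ordered by mean TPM. Ran is highest in every library, and Nup210 in fusion replicate 1, at 9.29 TPM, is the lowest point.

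Promoters were described for the members that RefSeq's promoter table (GRCm38.p6) holds, 30 of 35, over the 250 bases before the start. They were rich in G and C, with a median of 63.6% (range 43.2% to 81.6%) against 55.2% over 17492 promoters. Both strands were searched for 5 motifs. The core of the NRF1 site, CGCATGCG, was in 5 of 30 members (16.7%) and in 2.09% of all promoters. The core of the ETS-family site, CCGGAAG, was in 6 (20.0%) and 9.13%, the GC box GGGCGG, bound by Sp1 and its relatives, in 20 (66.7%) and 42.7%, and the CCAAT box in 11 (36.7%) and 36.3%. The letters TATAAA were in 2 members (6.67%) and in 12.4% of all promoters. A match is a description of letters and not a bound site. The 17492 promoters were not chosen by expression, and shares among genes at 43.7 CPM or more were not counted. The bases after the start were found in a transcript of the gene for 26 of the 30 members. Ahctf1, with the lowest share of G and C, was not among these. The 150 bases before the start are printed for the 3 members with the lowest p and for Nup50, 5′ to 3′ on the strand of the gene. Nup50 had the highest log2 fold change, but its groups overlapped. None of these members passed the threshold. Capitals mark the letters of the NRF1 core, the ETS core, the GC box and the CCAAT box on either strand. On the opposite strand the GC box appears as CCGCCC. On that strand the letters CCAAT appear, reversed and complemented, as ATTGG. Their positions are chr6:91116827-91116976 (minus strand) for Nup210, chr11:70969974-70970123 (minus) for Nup88, chr5:92435200-92435349 (minus) for Nup54 and chr15:84923278-84923427 (plus) for Nup50.
Nup210: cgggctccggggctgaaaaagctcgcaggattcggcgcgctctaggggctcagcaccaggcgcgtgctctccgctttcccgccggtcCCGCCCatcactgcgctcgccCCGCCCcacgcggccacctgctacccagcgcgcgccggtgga
Nup88: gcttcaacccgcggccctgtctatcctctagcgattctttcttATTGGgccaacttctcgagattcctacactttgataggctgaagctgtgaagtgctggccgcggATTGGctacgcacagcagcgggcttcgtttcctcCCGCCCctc
Nup54: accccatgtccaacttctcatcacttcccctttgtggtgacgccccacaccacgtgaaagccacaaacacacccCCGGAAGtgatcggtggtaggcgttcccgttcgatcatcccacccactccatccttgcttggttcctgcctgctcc
Nup50: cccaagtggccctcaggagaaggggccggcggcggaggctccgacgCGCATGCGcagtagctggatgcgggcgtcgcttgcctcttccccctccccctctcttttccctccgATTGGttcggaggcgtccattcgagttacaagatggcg
No motif is in all 4 stretches: Nup210 shows GC boxes, Nup88 a GC box and CCAAT letters, Nup54 the ETS core, and Nup50 the NRF1 core and CCAAT letters.

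The rest of the transport pathway was read from lists of other importins, exportins, Ran regulators, mRNA export factors and pore subunits. Of 43 listed genes 40 were tested, and 0 were called in either direction. A log2 fold change below 0 was found for 35 of the 40, or 87.5%, and both fusion libraries lay below both controls for 21, or 52.5%. The shares over all genes tested were 50.3% and 24.2%, and over genes at 43.7 CPM or more 62.6% and 33.5%. The median was -0.23, beside -0.22 for the members. Tnpo2, Nutf2, Ranbp10, Ddx19a, Ddx19b and Pcid2 lie on chromosome 8, where the parental library stood apart, and all of them were below 0. Counts without that chromosome were not made for these lists, and its part in them was not tested. By list, the counts below 0 were 13 of 15 importins and transportins (median -0.17), 4 of 4 exportins (-0.37), 5 of 5 Ran regulators (-0.24), 11 of 13 mRNA export genes (-0.24) and 2 of 3 other pore subunits (-0.11). The lowest unadjusted p values were those of Tnpo2 and Xpo4. Tnpo2, an importer of RNA-binding proteins on chromosome 8, stood at 289 and 279 CPM in the controls and 168 and 212 with the fusion (log2 fold change -0.58, SE 0.18, adjusted p = 0.143). Xpo4, an exporter, stood at 178 and 180.3 CPM in the controls and 112 and 137 with the fusion (log2 fold change -0.52, SE 0.18, adjusted p = 0.17). For both genes the controls were nearly equal and both fusion libraries were lower.

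Some values carry a limit of read assignment. Counts that were not whole numbers, the mark of reads shared between genes, were found for 11 members in at least 1 library, and for Nup35, Nup188, Nup54, Rae1, Gle1, Kpna2 and Ran in all 4. Another annotated gene overlapped 10 members on the same strand and 17 on the opposite strand. No source used here gives the strand setting of the counting, so reads of such partners cannot be told apart.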

How the data were processed

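Per the labels' protocols, a stranded mRNA kit was used for library preparation. The authors deposited, per library, a gene table with RSEM's expected counts (estimated counts, which share multi-mapping reads among genes), TPM, FPKM and an average transcript length in bases, per the file headers. The submitters' processing notes name RSEM 1.3.3, STAR 2.7.10a, DESeq2 1.36.0 and the build GRCm38/mm10. The deposited FPKM values were not used. Symbols and coordinates came from GENCODE vM21 (GRCm38), which matched 55141 of 55401 identifiers (99.5%).

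The rounded expected counts went through edgeR 4.0.16 under R 4.3.3 (TMM, filterByExpr with a minimum count of 10, robust quasi-likelihood fit), 2 fusion libraries against 2 wild-type libraries. Benjamini-Hochberg adjustment covered all 16511 tested genes, and the threshold was 0.05. Residual degrees of freedom were 2, and the common coefficient of variation was 25.6%. CPM are TMM-scaled. The SE is the absolute log2 fold change divided by the square root of the F statistic. The script was tested on simulated data before use.

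The alternatives tried were library totals, DESeq2's size factors, other filters, a fit that is not robust, DESeq2 1.42.0, limma 3.58.1 on log2 of TPM plus 1, each control alone, and each library left out. Ratios within groups used a prior count of 2. Values per library are given for the 6 members with the lowest p, the largest and smallest log2 fold change of each subcomplex, members at least 1.5-fold apart within a group, and Kpna2, Ran, Kpnb1 and Xpo1; of the other lists, the 2 genes with the lowest p are named. Those of Xpo7 and Rangap1 were added after their values were seen. The members and lists were chosen with earlier results of these data known. A planned count of phenylalanine-glycine repeats in the proteins was not run, and protein sequences were not used here. Python 3.11.15 with pandas 2.3.3 and matplotlib 3.10.9 served for tables and plots.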

Additional observations from a re-analysis of the deposited data

How the results depend on the processing

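Of 455 log2 fold changes of members under 13 alternatives, 428 kept their direction. The 27 that turned belong to 9 members. On library totals Nup62 was at 0.01, Rae1 at 0.0 and Gle1 at 0.05, and with limma on TPM Sec13 was at 0.02, Nup62 at 0.03, Rae1 at 0.05 and Gle1 at 0.13. Against parental cells alone Pom121 was at -0.07, Gle1 at 0.12 and Rangap1 at 0.07, and against empty vector alone Rae1 was at 0.03, Aaas at -0.01 and Ran at 0.06. With each library left out in turn the ranges were -0.24 to 0.08 for Sec13, -0.09 to 0.14 for Pom121, -0.11 to 0.0 for Nup62, -0.18 to 0.02 for Rae1, -0.16 to 0.1 for Gle1, -0.17 to 0.4 for Aaas, -0.05 to 0.64 for Nup50, -0.22 to 0.05 for Ran and -0.36 to 0.12 for Rangap1. The number of members below 0 ran from 27, without fusion replicate 2, to 35, without fusion replicate 1, and was 29 on library totals and 28 with limma. The members' median was -0.16 on library totals and -0.12 with limma, where that of all genes was 0.06 and 0.08, and it was -0.3 to -0.2 with a library left out. Members called lower numbered 1 (Nup210) with no filter on low counts, and 0 to 1 with a library left out. Over all genes, 96 were called lower and 468 higher. The numbers were 631 and 1315 with no filter, 436 and 919 with DESeq2's Wald test, 20 and 84 against parental cells alone, and 18 and 64 against empty vector alone. With a library left out they were 11 to 185 lower and 152 to 367 higher, where a group of 1 library is assumed to vary like the other. Only 1 member's fusion replicates were 1.5-fold apart on TPM plus 1. The cause of these shifts was not tested. Leaving out members on chromosome 8 and distal chromosome 15, added after seeing the data, gave a median of -0.24. With 2 libraries a group, differences of the members' usual size are below what the test resolves. No paired analysis was possible because the groups share fewer than 2 replicate numbers.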

Other observations

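Nup58, the channel subunit that partners Nup54 and Nup62, is listed under its older symbol Nupl1. GENCODE vM21 gives Nupl1 1 transcript form on chromosome 14 (60184612 to 60251431, minus strand), and it had 0 expected counts in all 4 libraries. An overlapping gene model on the same strand, Gm49336 (60205282 to 60251507, 7 transcript forms), had 2197 expected counts in parental cells, 2007 with empty vector, 2276 in fusion replicate 1 and 1984 in replicate 2. RefSeq's GRCm38.p6 annotation places Nupl1 at 60205284 to 60251479, close to the bounds of Gm49336. The level of Gm49336 was 114 and 106 CPM in the controls and 114 and 90.5 CPM with the fusion, so the groups overlapped (log2 fold change -0.11, SE 0.19, edgeR adjusted p = 0.808). A search by the symbol Nup58 or Nupl1 alone therefore finds no reads in this annotation.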
